A study of Mus musculus with 2 samples.

Results

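BAFF, APRIL and TWEAK are ligands of the tumor necrosis factor superfamily, and their genes and receptor genes were described here in Treg cell libraries from islet allograft recipients. The 8 genes were chosen by symbol, with earlier results on these libraries in view: the values that drew attention to them were the levels of Tnfsf13, Tnfsf12 and Tnfsfm13, which stood at 0 in 1 library and not in the other. All 8 had a row among the 20938 genes measured. There were 4 ligand genes, Tnfsf13b (BAFF), Tnfsf13 (APRIL), Tnfsf12 (TWEAK) and the read-through gene Tnfsfm13, and 4 receptor genes, Tnfrsf13c (BAFF-R), Tnfrsf13b (TACI), Tnfrsf17 (BCMA) and Tnfrsf12a (Fn14). Because the same contrast chose the genes, their differences are given as a description, with no test.

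RNA was sequenced from splenic Treg cells taken on day 7 after transplantation, with 1 library of Foxp3-Mettl14f/+ cKO mice (cKO) and 1 of littermate controls (Ctrl). The cKO mice carried 1 floxed Mettl14 allele and Cre under the Foxp3 promoter, on a C57BL/6J background, so deletion was directed to Foxp3-expressing cells only. The paper gives the littermate controls as Mettl14f/f and names no Cre for them. Both groups were streptozotocin-diabetic recipients of BALB/c islets and, according to the study, received no monoclonal antibodies. The Treg cells were enriched with magnetic beads as CD4+CD25+ cells, and neither the ages nor the number of animals behind each library is given in the sources used here. The sample labels call the genotypes wild type and Foxp3 knockdown, whereas the protocol names the Mettl14 cross. Mettl14 had 948 reads in Ctrl and 652 in cKO, with a log2 fold change of -0.31 and a 95% counting interval of -0.45 to -0.16. That direction turned when T cell marker genes were set equal between the libraries, where Mettl14 was at 0.05 and the median of all genes at 0.31.

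BAFF binds BAFF-R, TACI and BCMA, and APRIL binds TACI and BCMA as well as heparan sulfate chains. BAFF-R carries the survival signal of mature B cells through TRAF3, the kinase NIK and the noncanonical NF-kappaB pathway, whereas BCMA is best known for the survival of plasma cells and TACI for antibody class switching and restraint of B cell numbers. TWEAK binds Fn14, an inducible receptor of tissue injury and repair. In the spleen BAFF and APRIL are made mainly by myeloid and stromal cells, and BAFF-R is a classical B cell gene. The read-through gene encodes a fusion protein, TWE-PRIL, with the intracellular and membrane part of TWEAK and the receptor-binding part of APRIL.

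The 3 locus genes overlap on the minus strand of chromosome 11. In GENCODE vM21 on GRCm38, Tnfsfm13 runs from 69682577 to 69696098, Tnfsf12 from 69686250 to 69695849 and Tnfsf13 from 69682846 to 69685784, with 465 bases between Tnfsf12 and Tnfsf13. Of the 2235 exonic bases of Tnfsfm13, 731 are also exons of Tnfsf12 and 983 are also exons of Tnfsf13, and the 521 of its own (23.3%) are almost all at its ends. Of the exonic bases of Tnfsf12 and Tnfsf13, 51.7% and 40% lie outside the exons of the read-through gene, though within its bounds. In RefSeq even these ends are shared, since Tnfsf12 and Tnfsfm13 start at the same base and Tnfsf13 and Tnfsfm13 end at the same base. The splice that joins a Tnfsf12 exon to the APRIL-encoding part of Tnfsf13 is specific to the read-through gene. That junction is shown here because it is the sequence by which a read of Tnfsfm13 can be told from reads of the other two where their exons are shared. Each line holds 60 coding bases of a GENCODE transcript, 5′ to 3′, and the capitals mark the 30 bases of a Tnfsf13 exon that follow the splice.
Tnfsfm13: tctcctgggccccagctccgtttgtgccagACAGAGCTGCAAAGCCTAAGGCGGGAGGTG
Tnfsf12: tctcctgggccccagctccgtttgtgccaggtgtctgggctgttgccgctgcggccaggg
Tnfsf13: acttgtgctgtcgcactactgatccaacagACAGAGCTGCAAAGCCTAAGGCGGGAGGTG
Tnfsfm13, shorter transcript: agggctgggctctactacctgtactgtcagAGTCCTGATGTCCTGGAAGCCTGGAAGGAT
The first 30 bases of Tnfsfm13 are those of Tnfsf12, and its last 30 are those of Tnfsf13. In Tnfsf12 the exon runs on without the splice, and in Tnfsf13 the same 30 bases lie inside the first exon, 424 bases into the transcript. The splice removes 1826 bases between 69686957 and 69685130. The shorter transcript skips an exon on each side and enters Tnfsf13 at its next exon. A read that lies wholly within a shared exon carries no letter that tells Tnfsfm13 from Tnfsf12 or Tnfsf13.

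**Figure D1:**
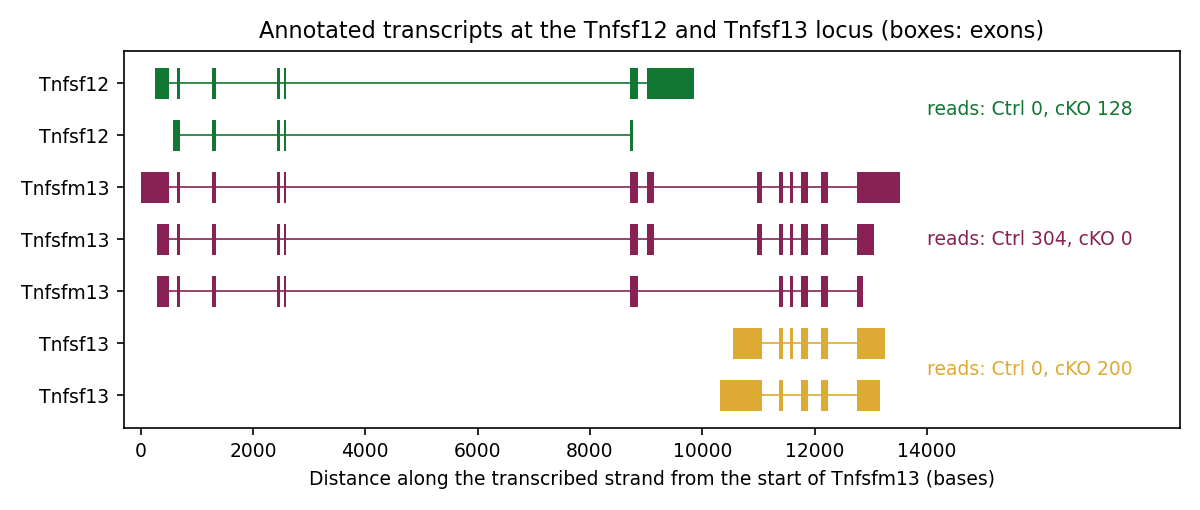
Annotated GENCODE vM21 transcripts of Tnfsf12 (2), Tnfsfm13 (3) and Tnfsf13 (2), to scale, with boxes for exons, lines for introns and the distance in bases from the start of Tnfsfm13 on the horizontal axis. The text on the right gives the recovered reads per library, which sat on Tnfsfm13 alone in Ctrl (304) and on Tnfsf12 (128) and Tnfsf13 (200) in cKO.

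Values below are the deposited levels, which are reads divided by a size factor for each library. Dividing by the smallest level above 0 gave back whole reads, 20239325 in Ctrl and 18327535 in cKO. Fold changes compare cKO with Ctrl after 1 was added to each level, on the log2 scale. Counting intervals (95%, Clopper-Pearson, exact) were computed from the reads. They cover counting error only, and with 1 library per genotype no difference has a replicate check. A mean level of 1 or more was reached by 16659 genes, of which 17.2% were at least 1.5-fold higher in cKO and 24.2% were at least 1.5-fold lower. With 14 T cell marker genes set equal between the libraries, 62.2% of the genes past 1.5-fold were higher, against 41.6% on the deposited scale, and the median log2 fold change of all genes moved from -0.04 to 0.31. Among the 8 genes, 7 were at least 1.5-fold higher in cKO and 1, Tnfsfm13, was lower. The same contrast chose the genes, so nothing is read from that count. With the 3 locus genes counted as 1 unit, 5 of 6 units were higher and 0 were lower. All 8 genes passed the filter on low values, of which Tnfsf13 and Tnfsf12 passed through cKO alone and Tnfsfm13 through Ctrl alone.

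Tnfsfm13, the read-through gene, had a level of 294 in Ctrl, from 304 reads, and 0 in cKO. Tnfsf13, which encodes APRIL, had 0 in Ctrl and a level of 227 in cKO, from 200 reads. Tnfsf12, which encodes TWEAK, had 0 in Ctrl and 146 in cKO, from 128 reads. Every read of the locus was thus on the read-through gene in 1 library and on the separate ligand genes in the other. Against a floor of 3 reads in the library at 0, Tnfsf13 was at least 78.4-fold higher in cKO, Tnfsf12 at least 50.2-fold higher and Tnfsfm13 at least 86.2-fold lower. The exact 95% counting intervals, which are wider than this floor, ended at 5.98, 5.33 and -6.12 on the log2 scale. Summed over the 3 genes, the level was 294 in Ctrl and 373 in cKO, from 304 and 328 reads. The sum differed by 0.34 on the log2 scale (95% interval 0.11 to 0.57), a 1.27-fold difference under the 1.5-fold threshold. With the T cell marker genes set equal it was 0.69, past that threshold, where the median of all genes was 0.31. In cKO the locus reads divided into 61.0% on Tnfsf13 (95% interval 55.5% to 66.3%) and 39.0% on Tnfsf12 (33.7% to 44.5%). The 0 of 328 reads on Tnfsfm13 in cKO allow a share of up to 0.915%, and the 0 of 304 on Tnfsf13 or Tnfsf12 in Ctrl a share of up to 0.987%, by a floor of 3 reads. The exact Clopper-Pearson intervals (95%) for these shares reached 1.12% and 1.21%. These limits hold only for reads as they were assigned in the tables. How shared reads were divided among overlapping genes is not given in the sources used here, and its part in the exchange of zeros was not tested. An antisense gene, Tnfsf13os, also crosses the locus, and the strandedness of the counting is not given either. Across all genes, 10919 had at least 100 reads in 1 library, and 9 of them (0.0824%) had 0 in the other. Of these 9, 3 were Tnfsf12, Tnfsf13 and Tnfsfm13, whose zeros drew attention to the set, so nothing is read from that count.

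Tnfsf13b, on chromosome 8 from 10006467 to 10039072, encodes BAFF, and it had a level of 90.0 in Ctrl and 142 in cKO, from 93 and 125 reads. Its log2 fold change was 0.65 (95% interval 0.26 to 1.06), so the counting interval reached below the 1.5-fold threshold, and scaling by library totals put it at 0.56, under that threshold. All 4 ligand genes summed to 384 in Ctrl and 515 in cKO, a difference of 0.42 (0.23 to 0.62).

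**Figure D2:**
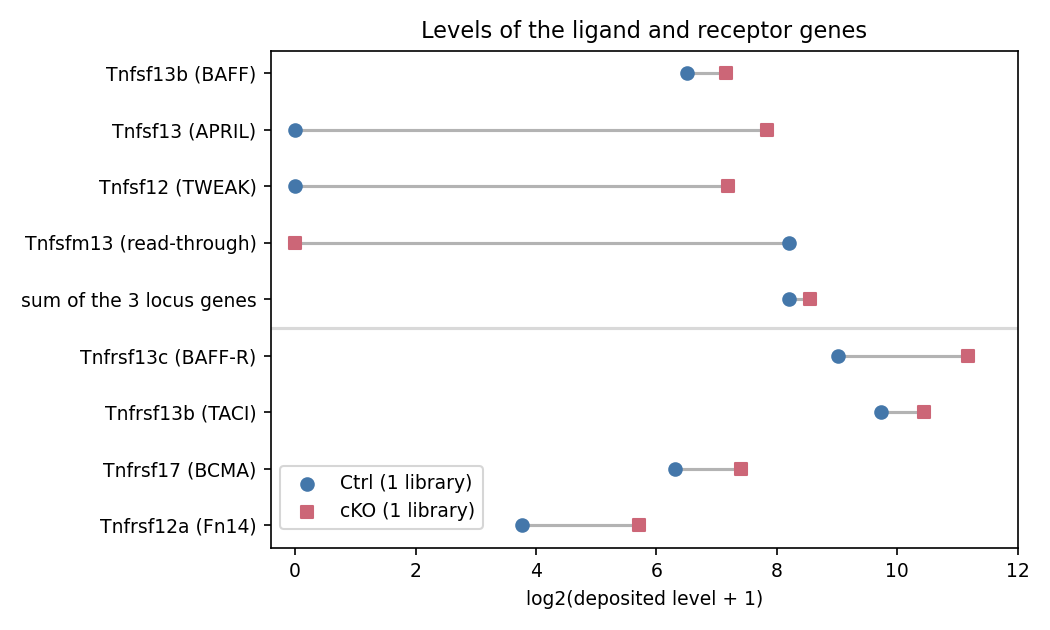
Deposited level of each gene as log2(level + 1), with circles for the Ctrl library, squares for the cKO library and a grey line joining them. The 3 locus genes exchange a level of 0 between libraries while their sum is 294 and 373, and all 4 receptor genes sit higher in cKO.

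The 4 receptor genes were all higher in cKO, and together they had a level of 1457 in Ctrl and 3916 in cKO, a log2 difference of 1.43 (95% interval 1.34 to 1.51). Tnfrsf13c, on chromosome 15 from 82221743 to 82224369, had the largest difference among the receptors in reads and in level. It had a level of 519 in Ctrl and 2313 in cKO, from 536 and 2034 reads, a 4.46-fold ratio of levels and 2.16 on the log2(level + 1) scale (interval 2.02 to 2.30). Tnfrsf13b, on chromosome 11 from 61126755 to 61149372, which encodes TACI, had 847 in Ctrl and 1384 in cKO. Its log2 fold change was 0.71 (0.58 to 0.83), from 876 and 1217 reads, with an interval that began just under the 1.5-fold threshold. Among the reads on BAFF-R, TACI and BCMA together, TACI held 58.7% in Ctrl (95% interval 56.1% to 61.2%) and 35.8% in cKO (34.2% to 37.4%). BAFF-R held 35.9% (33.5% to 38.4%) and 59.8% (58.2% to 61.5%), so the leading receptor gene was TACI in Ctrl and BAFF-R in cKO.

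Tnfrsf17, on chromosome 16 from 11313812 to 11320074, encodes BCMA and had a level of 78.4 in Ctrl and 168 in cKO, from 81 and 148 reads. The log2 fold change was 1.09 (95% interval 0.70 to 1.51), while its share of the reads on the 3 BAFF and APRIL receptors was 5.43% and 4.35% with overlapping intervals (4.33% to 6.70% and 3.69% to 5.10%). Tnfrsf12a, on chromosome 17 from 23675445 to 23677468, encodes the TWEAK receptor Fn14 and had the fewest reads of the receptor genes in both libraries. It had 13 reads in Ctrl and 45 in cKO, levels of 12.6 and 51.2, and its log2 fold change of 1.94 had an interval of 1.11 to 3.04. With so few reads the fold of Fn14 could not be told apart from that of BAFF-R by counting error.

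**Figure D3:**
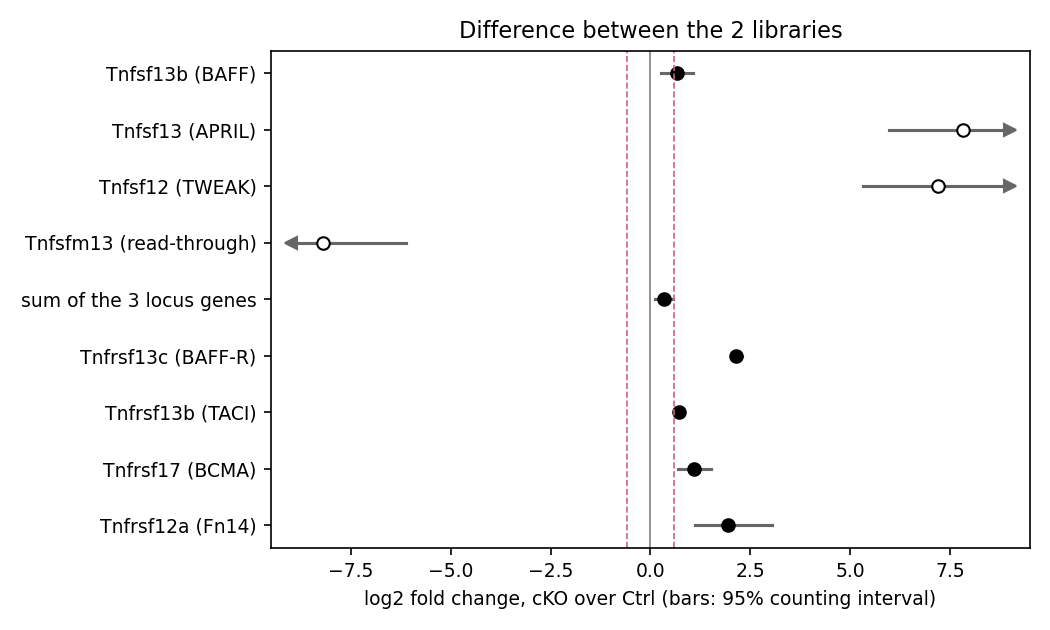
Log2 fold change of cKO over Ctrl for each gene (points) with its 95% counting interval (bars), where open points and arrows mark genes at 0 in 1 library, whose interval has only 1 finite end. Dashed lines stand at 1.5-fold. The sum of the 3 locus genes is at 0.34, and the receptors lie between 0.71 and 2.16.

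Levels of different genes were compared as RPKM, reads scaled to exon length in kilobases and to library total, computed from the recovered reads and the union of GENCODE exons. In Ctrl the order was TACI at 15.3, BAFF-R at 12.9, BCMA at 4.91, the summed APRIL and TWEAK locus at 4.09, BAFF at 0.669 and Fn14 at 0.332 RPKM. The counting intervals of BCMA (3.90 to 6.10) and the locus (3.64 to 4.58) overlapped, and those of BAFF (0.540 to 0.820) and Fn14 (0.177 to 0.569) met at their ends. In cKO the order was BAFF-R at 54.2, TACI at 23.4, BCMA at 9.91, the locus at 4.87, Fn14 at 1.27 and BAFF at 0.993 RPKM. There the locus (4.36 to 5.43) lay below BCMA (8.38 to 11.6), while Fn14 (0.927 to 1.70) and BAFF (0.827 to 1.18) overlapped. Single genes of the locus can be placed only as assigned, at 6.72 RPKM for Tnfsfm13 in Ctrl and at 6.67 for Tnfsf13 and 4.61 for Tnfsf12 in cKO. With the locus taken as a sum, BAFF-R and TACI were thus the most abundant per length in both libraries, and BAFF and Fn14 the least.

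Markers of B cells and macrophages were all at least 1.5-fold higher in cKO, as were the receptor genes. Of the 9 CD8 T and NK cell markers 5 were higher too, while the other lists were mostly under 1.5-fold or mostly lower. All 15 B cell markers, such as Ms4a1, Cd79a and Pax5, were at least 1.5-fold higher in cKO, with log2 fold changes of 1.13 to 3.10 and a median of 2.34, and their reads summed to 11507 in Ctrl and 47988 in cKO. The values of Tnfrsf13c (2.16) and Tnfrsf12a (1.94), which is not a B cell gene, lay inside that range and those of Tnfrsf17 (1.09) and Tnfrsf13b (0.71) below it. Per 1000 reads on B cell markers, Tnfrsf13c had 46.6 reads in Ctrl and 42.4 in cKO, a log2 ratio of -0.14 whose interval included 0 (-0.27 to 0.00383). Tnfrsf13b had 76.1 and 25.4 per 1000, a log2 ratio of -1.59 (-1.71 to -1.46), and Tnfrsf17 had 7.04 and 3.08, a ratio of -1.19 (-1.59 to -0.78). Tnfrsf12a had 1.13 and 0.938, a ratio of -0.27 with a wide interval (-1.18 to 0.75). Relative to B cell marker reads, the shares of BAFF-R in the libraries could not be told apart by counting error, whereas TACI and BCMA made up smaller shares in cKO. Of the 8 plasma cell markers, 2 were higher, Mzb1 and Tnfrsf17 itself, and 0 were lower, with a median of 0.12. Jchain, a defining plasma cell gene, had 34138 and 30035 reads, so plasma cell transcripts were abundant in both libraries. Per 1000 reads on plasma cell markers the direction was the opposite. Tnfrsf17 had 1.77 in Ctrl and 3.60 in cKO, a log2 ratio of 1.02 (0.62 to 1.43) with Tnfrsf17 left out of the list. Tnfrsf13b had 19.1 and 29.5, a ratio of 0.62 (0.50 to 0.75). Most of the plasma cell marker reads were on Jchain in both libraries, so these ratios rest largely on that gene.

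All 13 macrophage markers were also higher, with a median of 2.80 and summed reads of 5535 and 14003, and Marco among them had 0 reads in Ctrl. Their log2 fold changes ran from 0.78 to 4.57, a range that also held Tnfrsf13c, Tnfrsf12a and Tnfrsf17 but not Tnfrsf13b (0.71). Per 1000 macrophage marker reads, the locus sum was 54.9 in Ctrl and 23.4 in cKO and BAFF was 16.8 and 8.93. On the same basis the log2 ratio was 0.58 for Tnfrsf13c (0.45 to 0.72) and 0.45 for Tnfrsf12a (-0.46 to 1.47). It was -0.86 for Tnfrsf13b and -0.47 for Tnfrsf17. The 9 dendritic cell markers had a median of 0.13 with 2 higher and 0 lower, the 13 granulocyte markers 0.44 with 3 higher and 3 lower, and the 9 CD8 T and NK cell markers 0.63 with 5 higher and 0 lower. These last markers ran from 0.18 to 2.46, with Cd8b1 at 2.46 and Cd8a at 2.25. The T cell markers, of which 14 of 17 were matched, had a median of -0.35 with 0 higher and 2 lower (Cd4 and Cd3g), and summed to 60905 and 40639 reads. Foxp3 had 1547 and 1361 reads, and the 10 Treg markers a median of 0.20 with 2 higher and 1 lower. The 9 erythroid markers had a median of -1.26 with 8 lower. The defining markers of T and Treg cells were thus present in both libraries, beside those of B cells, plasma cells, macrophages and granulocytes. Of all these lists, the granulocyte markers held the most summed reads in both libraries, above the T cell markers. In these bulk samples, more cells of a type and more RNA per cell cannot be told apart, and the part of other cell types in the receptor differences was not tested.

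**Figure D4:**
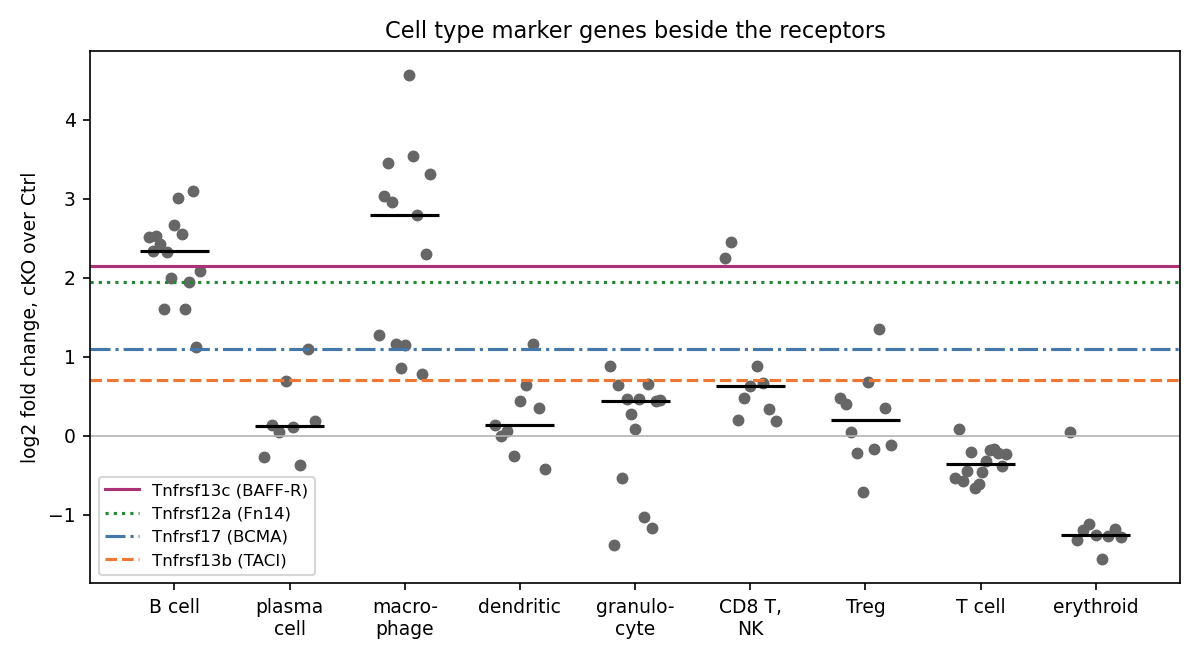
Log2 fold change of cKO over Ctrl for each marker gene (points) by cell type, with the median of each list as a black bar, and horizontal lines at the 4 receptor genes. BAFF-R at 2.16 and Fn14 at 1.94 lie among the B cell markers (1.13 to 3.10), while BCMA at 1.09 and TACI at 0.71 lie below all of them. The range of the macrophage markers (0.78 to 4.57) also holds BAFF-R, Fn14 and BCMA. The plasma cell list includes BCMA itself.

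The genes that carry the signal inside the cell were described as lists. Of 13 adaptors and noncanonical NF-kappaB genes, 12 were matched, and 2 were at least 1.5-fold higher, 0 lower, with a median log2 fold change of 0.40 against -0.04 over all genes tested. That share of higher genes is close to the 17.2% of all genes, and nothing is read from it. Map3k14, which encodes NIK, was at 0.74 (95% interval 0.63 to 0.84) from 1356 and 1921 reads, and Birc3, encoding the ubiquitin ligase cIAP2, one of 1.01 (0.92 to 1.10) from 1706 and 2921 reads. Traf3, the adaptor that holds NIK in check, was at 0.15, Nfkb2 at 0.44 and Relb at 0.45, each under 1.5-fold. Beside 17.2% higher and 24.2% lower among all genes, 3 of the 9 canonical NF-kappaB genes were higher and 0 lower, with a median of 0.46. These were Tnfaip3, encoding the feedback inhibitor A20, at 1.14, Rel at 0.79 and Nfkbie at 0.65. With the T cell marker genes set equal, 9 of the adaptor and noncanonical genes and 6 of the canonical genes were at least 1.5-fold higher. So were 5147 of the 16659 genes tested. The median of all genes was then 0.31, and these counts are not taken relative to it. With edgeR's exact test at an assumed coefficient of variation of 0.4 added, 0 genes of either list were past the threshold.

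Among 13 genes of ligand processing, receptor shedding and co-binding, 3 were higher and 1 lower, with a median of 0.26. Over all genes tested 17.2% were higher and 24.2% lower. With the T cell marker genes set equal 8 of the 13 were higher, as were 5147 of the 16659 genes tested. Furin, the protease that cleaves BAFF, APRIL and TWEAK, had 2024 and 2055 reads and was at 0.26 (counting interval 0.17 to 0.34). Of the syndecans, heparan sulfate proteins of the kind that bind APRIL, Sdc4 was at 1.98 from 298 and 1002 reads and Sdc3 at 1.03. Sdc1 went the other way, at -0.37 (counting interval -0.54 to -0.20) from 697 and 459 reads, under 1.5-fold. Cd163, a macrophage gene described as a scavenger receptor for TWEAK, was at 1.16. Sdc2, with 7 and 0 reads, was the lower gene of this group.

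The rest of the superfamily did not share 1 direction. Of 14 other ligand genes past the filter, 2 were higher, Lta at 1.12 and Fasl at 0.97, and 5 were lower, with a median of -0.22. The lower ligands with a mean level of 10 or more were Tnfsf11 (RANKL) at -0.79, Tnfsf18 (GITR ligand) at -1.43 from 27 and 8 reads, and Eda, with 32 and 0 reads. Against a floor of 3 reads Eda was at least 9.07-fold lower, and its wider exact counting interval ended at -2.80 on the log2 scale. Of 24 other receptor genes, 8 were higher, among them Edar with 0 and 2 reads, and 6 lower, with a median of 0.04. Over all genes tested 17.2% were higher and 24.2% lower, and these ligand and receptor counts are given as a description only. Cd40, a B cell and myeloid receptor, was the highest of these on the log2 scale at 2.76 (95% interval 2.38 to 3.20) from 61 and 356 reads. Tnfrsf8 at 1.03, Tnfrsf11a at 0.97, Relt at 0.84, Tnfrsf1b at 0.72, Tnfrsf23 at 0.72 and Tnfrsf21 at 0.60 were also higher. Lower receptors known from T cells were Tnfrsf25 (DR3) at -0.78 and Tnfrsf4 (OX40) at -0.68, together with Tnfrsf19 at -1.63 and Tnfrsf10b at -0.61. Tnfrsf18 (GITR), a Treg marker, was at -0.12 (-0.30 to 0.06), an interval that includes 0, and was at 0.23 with the T cell marker genes set equal. With that scaling Tnfrsf25 (-0.43), Tnfrsf4 (-0.32), Tnfrsf10b (-0.26) and Tnfsf11 (-0.44) were no longer past 1.5-fold, and 3 other ligands and 3 other receptors were lower.

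**Figure D5:**
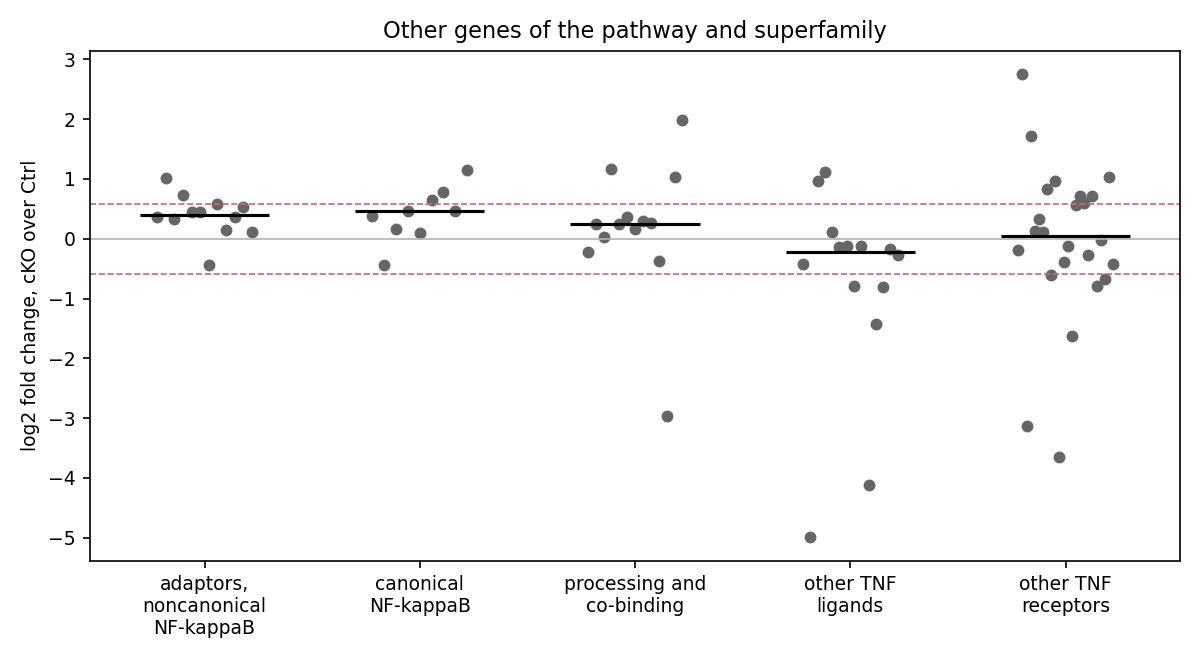
Log2 fold change of cKO over Ctrl for each gene of 5 lists (points), with the list median as a black bar and dashed lines at 1.5-fold. The adaptor and NF-kappaB medians are 0.40 and 0.46, and the other ligands and receptors of the superfamily spread to both sides of 0.

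The start regions of the locus and of BAFF-R are printed because these are the points from which the read-through gene and the receptor gene with the largest difference are transcribed. Each line holds the 250 bases before the RefSeq start (GRCm38.p6), with the motifs found in capitals. The window of Tnfsfm13, which has the same start as Tnfsf12, is chr11:69696099-69696348 on the minus strand, and that of Tnfrsf13c is chr15:82224381-82224630 on the minus strand.
Tnfsfm13: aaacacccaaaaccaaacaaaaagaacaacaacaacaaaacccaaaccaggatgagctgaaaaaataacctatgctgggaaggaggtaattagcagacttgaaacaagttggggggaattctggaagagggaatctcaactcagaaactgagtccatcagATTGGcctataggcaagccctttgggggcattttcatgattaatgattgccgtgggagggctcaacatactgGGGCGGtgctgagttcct
Tnfrsf13c: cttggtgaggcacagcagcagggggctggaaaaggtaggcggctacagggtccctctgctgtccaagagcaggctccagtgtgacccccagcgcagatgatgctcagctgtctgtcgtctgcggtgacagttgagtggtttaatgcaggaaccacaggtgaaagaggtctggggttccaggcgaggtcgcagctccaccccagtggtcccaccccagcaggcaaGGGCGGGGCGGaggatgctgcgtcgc
Motifs searched on both strands included the GC box GGGCGG, the CCAAT box and the TATA box TATAAA. In the first window the capitals are a CCAAT box, read on the other strand, and a GC box, and in the second they are 2 GC boxes that overlap each other. Over the 8 windows of 7 members, 5 held a GC box, against 32.7% of all 32851 promoter windows of this length. A CCAAT box was in 1 of the 8, against 33.8%, and a TATA box in 1, that of Tnfrsf17, against 12.4%. An EBF-type and a kappaB-type motif were also searched and were in 0 of the 8, against 0.779% and 1.41% of all windows. These are matches of letters only.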

How the data were processed

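RNA-seq was performed on 1 library of splenic Treg cells per genotype. Per the labels and the paper's methods, the authors aligned reads to mm10 with TopHat; the submitters' processing notes also name bcl2fastq 2.0, STAR, StringTie and DESeq2, without roles. The authors deposited 1 value per gene and library, a signal that equals read counts over a size factor: 100% of values were whole multiples of the library's smallest value (tolerance 0.001). The counting tool, annotation and strandedness are not given in the sources used here.

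Changes were computed with a pseudocount of 1, a minimum mean level of 1 and a 1.5-fold threshold, the fold given in the methods. The design assumed no replicate test; recovered reads gave exact Clopper-Pearson (95%) and, for RPKM, exact Poisson intervals. The floor was 3 reads. An exact binomial test against TMM-scaled totals (adjusted p under 0.1, at least 10 reads) and an exact test in edgeR, its coefficient of variation set to 0.4 by assumption, were alternatives across all genes; they compare libraries, not genotypes. The binomial test, the fold call and the counting interval were tested on simulated reads with known changes and counting error only. The other steps were not tested in this way. Members, gene lists and tests were chosen with earlier results of these data known. Named were all members, pathway genes past 1.5-fold with a mean level of at least 10, and 7 fixed ones. List symbols not matched (Camlg, Trac, Trbc1, Trbc2) have no value. Of the table's genes, 20516 matched GENCODE vM21 (GRCm38) by symbol. Sequences came from GENCODE transcripts and RefSeq promoters (7 of 8 members matched). With 2 libraries, no genes were named for a similar pattern. Median-of-ratios factors came from DESeq2 1.42.0 and TMM factors from edgeR 4.0.16 (R 4.3.3). Other steps ran in Python 3.11.15, with scipy 1.17.1 for intervals, pandas 2.3.3 and numpy 2.4.6 for tables, and matplotlib 3.10.9 for plots.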

Additional observations from a re-analysis of the deposited data

How the results depend on the processing

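No paired analysis was possible because there was a single library of either genotype, and no replicate could be left out. Each alternative was applied to the counts over all genes and to the counts of members. Where it bears on them, it was also applied to the member values and the locus sum, and 0 of these values changed sign. Tnfsf13, Tnfsf12 and Tnfsfm13, each at 0 in 1 library, could not change sign under these settings. The balance over all genes did turn, from more lower to more higher. It was 5147 higher and 3126 lower with the T cell marker genes set equal. With a minimum mean level of 10 it was 2112 and 2035, and with only genes above 0 in both libraries 2182 and 1904. Among the 73 genes of the pathway lists, 10 that were under 1.5-fold turned direction with the T cell marker genes set equal, as did Mettl14 (-0.31 to 0.05). Of the counts of higher and lower genes within these lists, 24 moved by over 1.5-fold and 96 did not; with edgeR's test added, 0 genes of the adaptor, canonical and processing lists, 2 other ligands and 1 other receptor were past the threshold. Against 2864 higher and 4028 lower genes on the deposited scale, setting the T cell marker genes equal gave 5147 higher genes and moved the locus sum from 0.34 to 0.69, and a 2-fold threshold gave 1722 higher genes. A minimum mean level of 10 gave 2035 lower genes, and keeping only genes above 0 in both libraries gave 1904 lower genes and 0 lower members, since these settings test fewer genes. Adding the exact binomial test gave 2197 higher and 2617 lower genes. Adding edgeR's exact test with an assumed coefficient of 0.4 gave 229 and 569. Then 2 members were higher (Tnfsf13 and Tnfsf12) in place of 7, and Tnfsfm13 was still lower. The zeros of these same genes drew attention to the set, so nothing is read from their passing. No value for the spread between animals exists in these data. Pseudocounts of 0.1 and 5, no filter, and scaling by library totals, TMM or median of ratios kept these counts within 1.5-fold and the locus sum within its counting interval. With a pseudocount of 5 the fitted values of Tnfsf13, Tnfsf12 and Tnfsfm13 were 5.54, 4.91 and -5.90, below their bounds in size. With the T cell marker genes set equal Tnfrsf13c was at 2.51 and Tnfrsf13b at 1.06. Depth limits Tnfrsf12a most, with 13 and 45 reads.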
